A study of Mus musculus with 8 samples.

Results

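The 10 genes described here encode proteins that set how long cytokine mRNAs last: the tristetraprolin family (Zfp36, Zfp36l1 and Zfp36l2), the Regnase nucleases (Zc3h12a, Zc3h12c and Zc3h12d), the Roquin proteins (Rc3h1 and Rc3h2), the stabilizing protein HuR (Elavl1) and N4bp1. They were chosen by gene symbol, and all 10 were found among the 55414 Ensembl genes of the count table. All 10 also passed the filter on low counts, which left 14655 genes for testing. The RNA came from Kupffer cells (macrophages that live in the liver sinusoids), sorted by flow cytometry from wild-type C57BL/6J mice 2 h after surgery. The CLP group had caecal ligation and puncture, which lets gut bacteria into the abdomen and models sepsis, and the Sham group had the control operation. Both groups held 4 libraries, and all mice were kept on chow under specific pathogen-free housing. The labels used here give neither the age nor the sex of the mice, nor the sort gate. Nor do they say whether a library is 1 mouse, and the p-values therefore speak only of the spread among these samples, which may be technical. Libraries were made with a stranded kit from total RNA.

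Many cytokine mRNAs carry AU-rich elements or stem-loops in their 3′ untranslated region, and proteins that bind there decide whether the message is destroyed or kept. Tristetraprolin and its relatives bind AU-rich elements through a tandem zinc finger and bring in the CCR4-NOT deadenylase. Regnase-1 cuts stem-loops as an endonuclease, Roquin binds similar stem-loops and also recruits CCR4-NOT, and HuR binds AU- and U-rich stretches and tends to protect the message. In macrophages several of these regulators are themselves induced by bacterial products, so that the cytokine response carries its own brake.

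At 2 h after CLP, 8 of the 10 regulators were higher than after sham surgery, 1 (Zfp36l2) was lower and 1 (Zc3h12d) did not pass an adjusted p of 0.05 (edgeR quasi-likelihood test, Benjamini-Hochberg over 14655 genes). Over all genes tested, 24.9% were called higher and 29.5% lower, 54.3% in all. The count rests on the scaling: with total-count scaling 4 members were higher and 3 lower, with Rc3h2 turned to lower, Zc3h12d called lower, and the calls of Zfp36l1, Rc3h1 and Elavl1 lost. In that fit 1715 of the 14655 genes were higher and 8292 lower. The largest rises were those of Zc3h12c and Zc3h12a, at 7.6-fold and 6.21-fold, and both were among the 5.04% of genes called higher by at least 4-fold. The 4 CLP libraries lay wholly above the 4 Sham libraries for 7 members, against 22.1% of all genes, and wholly below for 1, against 27.3%; 49.5% of all genes were separated in either direction. The median log2 fold change of the members was 0.87, beside -0.04 over all genes tested.

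**Figure D1:**
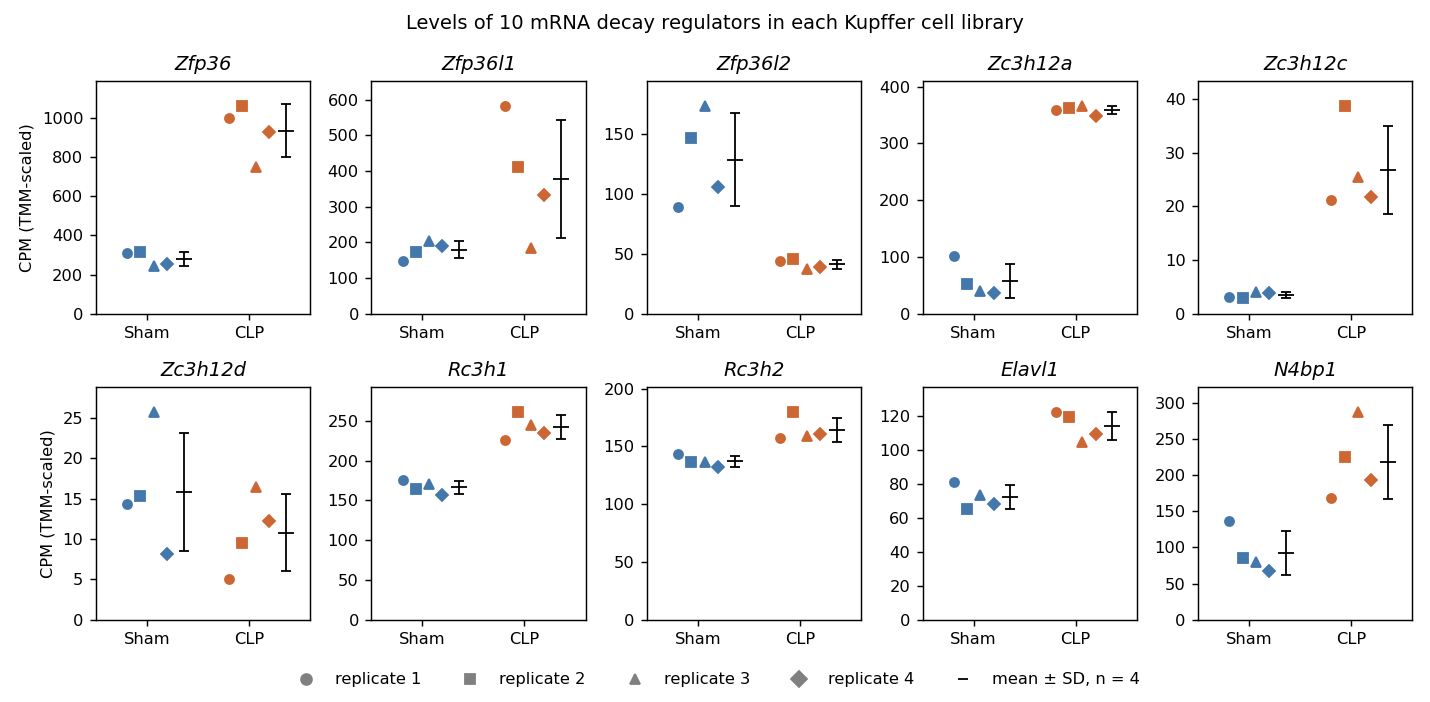
Level of each gene in CPM (library-scaled counts, linear axes from 0) in the 4 Sham (blue) and 4 CLP (orange) libraries; marker shapes are replicate numbers, and the black bar is the mean ± SD (n = 4). Zfp36, Zc3h12a, Zc3h12c, Rc3h1, Rc3h2, Elavl1 and N4bp1 are separated upward, Zfp36l2 is separated downward, and the groups overlap for Zfp36l1 and Zc3h12d.

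Each library held between 23311897 and 28724875 counts. Levels are in CPM, counts relative to library size with TMM scaling. The first principal component of log2 CPM separated the groups (76.7% of the variance), and the second (9.99%) set CLP replicate 1 off from its group. Kupffer cell markers were abundant in every library, with a summed level of 21304 to 27927 CPM in Sham and 28007 to 36340 CPM in CLP over 8 genes. Markers of other cells also moved. Neutrophil markers summed to 82.5 to 119.8 CPM in Sham and 199 to 553 CPM in CLP. Csf3r made up most of that sum in every library, with means of 99.1 CPM in Sham and 246 CPM in CLP. S100a8 and S100a9 had means of 1.23 and 1.32 CPM in Sham and 51.9 and 62.2 CPM in CLP. Ly6g, Elane and Mpo were under 1 CPM in every library. Of the 11 neutrophil markers 7 were tested and called higher, but Retnlg, Cxcr2 and Ngp were under 1 CPM in Sham, so that only their CLP level let them through the filter. Platelet markers summed to 15.4 to 28.1 CPM in Sham and 123 to 198 CPM in CLP, mostly from Pf4, with means of 18.1 and 148 CPM. Of the 7 platelet markers 6 were tested and called higher, of which Gp9, Tubb1 and Treml1 passed the filter in the same way (Gp1bb was at 0 in every library). The dendritic cell marker sum went the other way, from 18.9 to 36.7 CPM in Sham to 9.30 to 14.8 CPM in CLP. Most of that sum was Clec9a, which fell from a mean of 26.7 to 8.91 CPM. Of 3 tested dendritic cell markers Clec9a was lower, Xcr1 did not pass and Ccr7 was higher. Ccr7, at 0.233 CPM in Sham and 2.17 CPM in CLP, passed the filter only through its CLP level. Monocyte marker sums overlapped, at 172 to 291 CPM in Sham and 223 to 364 CPM in CLP. They were mostly Plac8, with means of 205 CPM in Sham and 264 CPM in CLP, and Ly6c2 was under 1 CPM in every library. Endothelial markers summed to 1542 to 1956 CPM in Sham and 2221 to 2756 CPM in CLP (3 of 6 higher). Most of that sum was Cdh5, with means of 1277.5 CPM in Sham and 1914.4 CPM in CLP. Clec4g and Kdr were also higher, whereas Stab2, Lyve1 and Pecam1 did not pass (log2 fold changes -0.05, 0.12 and -0.37). Hepatocyte markers summed to 1841 to 2663 CPM in Sham and 2551 to 3464 CPM in CLP (1 of 6 higher). The part of these cells in the values below was not tested. In sorted bulk RNA, fewer cells of a type and less RNA per cell cannot be told apart.

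Zfp36 (ENSMUSG00000044786), the gene of tristetraprolin (TTP), was the most abundant regulator. Its level was 310, 315, 245 and 253 CPM in Sham replicates 1 to 4 and 1003, 1063, 753 and 927 CPM in CLP replicates 1 to 4. Every CLP library exceeded every Sham library, and CLP replicate 3 was the lowest of its group. The mean of 936 ± 134 CPM after CLP compared with 281 ± 36.8 CPM after sham surgery (SD, n = 4), a log2 fold change of 1.74 ± 0.15 (SE; edgeR adjusted p = 8.5e-06) and a rise of 3.33-fold with a 95% interval of 2.66 to 4.18.

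Zfp36l1 (ENSMUSG00000021127), a TTP relative with the same zinc finger domain, was at 149, 174, 203 and 191 CPM in Sham and 582, 412, 185 and 332 CPM in CLP. The CLP libraries were spread far more widely than the Sham libraries, and CLP replicate 3 fell inside the Sham range while CLP replicate 1 was the highest. The CLP mean was 378 ± 165 CPM against a Sham mean of 179 ± 23.3 CPM. That gave a log2 fold change of 1.08 ± 0.28 (edgeR adjusted p = 0.0082). The call was lost with total-count scaling (0.52, edgeR adjusted p = 0.13) and without the low-count filter (1.03, edgeR adjusted p = 0.0523). In the reference annotation a noncoding gene on the opposite strand, Gm26669, shares 1672 bases of exon with Zfp36l1, and the labels do not say whether reads were counted by strand.

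Zfp36l2 (ENSMUSG00000045817), the third family member, went the other way. It was at 88.5, 146, 173 and 106 CPM in Sham and 43.5, 45.5, 37.5 and 38.9 CPM in CLP. All 4 CLP libraries lay close together and below the lowest Sham library. The log2 fold change was -1.63 ± 0.20 (edgeR adjusted p = 6.7e-05), so the mean level was 3.11-fold lower after CLP.

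The ratio of these genes was also taken within each library, where scaling cancels out. The log2 ratio of Zfp36 to Zfp36l2 counts was 1.17 ± 0.54 in Sham and 4.49 ± 0.11 in CLP (SD, n = 4), a change of 10.02-fold. No test is given for it, because groups already separated in opposite directions fix its outcome. The ratio of Zfp36l1 to Zfp36l2 went from 0.52 ± 0.33 to 3.08 ± 0.59 on the log2 scale. It is given no test either, because the ranges of both genes given above fix its outcome. The Zfp36 to Zfp36l2 pair is among the 7, which makes the smallest adjusted p, here and in the families below, somewhat smaller than without it. The ratio of Zfp36 to Zfp36l1 overlapped between the groups, at 0.65 ± 0.37 in Sham and 1.41 ± 0.51 in CLP (exact permutation p = 0.0857). Per kilobase of exon, Zfp36l2 held 15.3% to 26.1% of the family's summed level in Sham and 2.48% to 3.67% in CLP. Zfp36 held 37.7% to 54.4% in Sham and 58.3% to 75.0% in CLP. The sum itself was 164 to 190.4 CPM per kilobase in Sham and 289 to 496 in CLP.

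**Figure D2:**
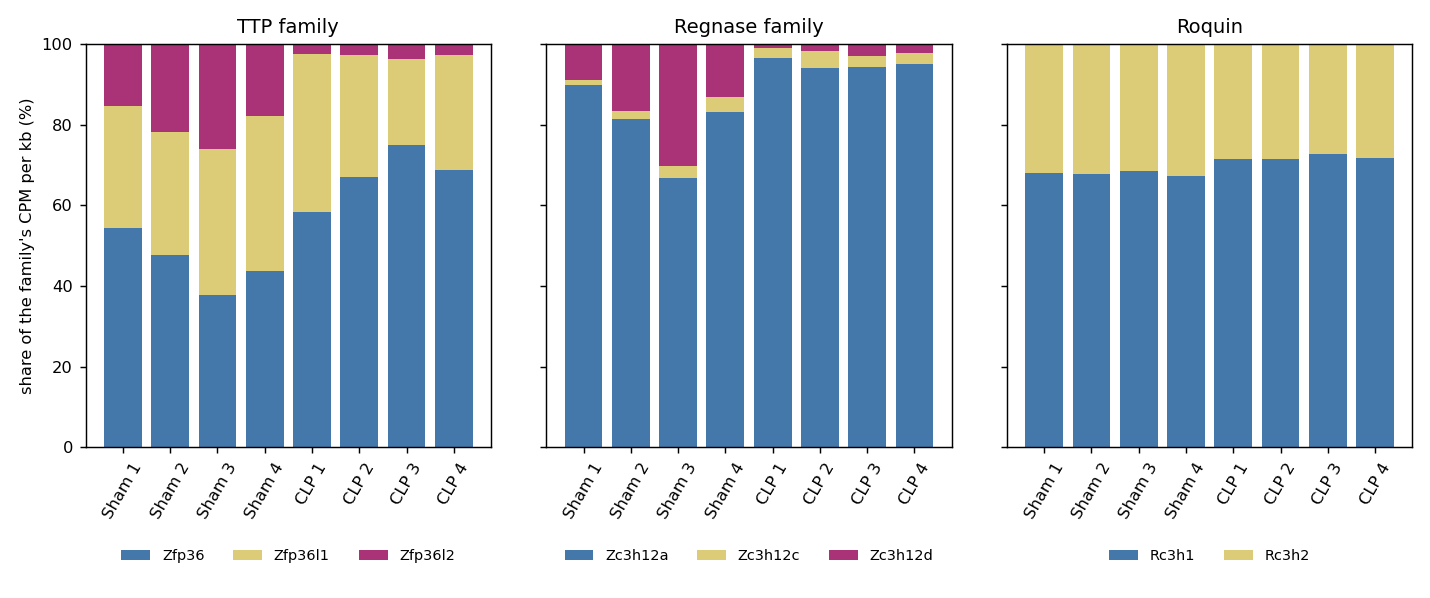
Share of each gene in its family's summed CPM per kilobase of exon (vertical axis, percent), with 1 stacked bar per library; the panels are the TTP, Regnase and Roquin families. Zfp36l2 shrinks from 15.3% to 26.1% in Sham to 2.48% to 3.67% in CLP, Zc3h12d from 8.87% to 30.2% to 0.956% to 2.97%, and the Roquin pair shifts by a few percent.

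The mRNAs of the TTP family carry the kind of site that the family binds, as do those of some other members. The 9-base AU-rich motif TTATTTATT was searched in the transcript strand of the longest annotated 3′ untranslated region of each gene, and the 7-base core TATTTAT, which the longer motif contains, was counted separately. Copies that overlap were each counted. The longer motif was found in 7.7% of 21037 mouse 3′ untranslated regions and the core in 27.6%, shares that are not matched for length. The region was 7181, 5331 and 4218 bases long in Rc3h1, Rc3h2 and Elavl1, beside a median of 1173 over the tested genes. It was 774 bases long in Zfp36, 1835 in Zfp36l1 and 1822 in Zfp36l2. Zfp36, Zfp36l1 and Zfp36l2 held 1 copy each of the longer motif and 3 each of the core. Rc3h1 and Rc3h2 also held 1 copy each of the longer motif, with 2 and 3 of the core. Elavl1 is described below. The sites of the TTP family are shown with the start of the cluster in Tnf, the best-known TTP target. Capitals mark bases inside a TTATTTATT, and the letters are T and not U, as in the reference transcripts (GENCODE M21, assembly GRCm38). Positions count from the first base after the stop codon.
Zfp36 (position 589): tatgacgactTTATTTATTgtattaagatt
Zfp36l1 (position 1404): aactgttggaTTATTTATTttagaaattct
Zfp36l2 (position 821): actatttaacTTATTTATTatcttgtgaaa
Tnf (position 438): tttgcacttaTTATTTATTATTTATTTATT
A match is a description of the sequence and not evidence of binding here. The same motif was present in 1 family member that fell and in the others that rose.

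Zc3h12a (ENSMUSG00000042677) encodes Regnase-1, the endonuclease that cuts Il6 and Il12b mRNAs. It was at 102, 52.5, 40.1 and 36.2 CPM in Sham and 358, 362, 366 and 348 CPM in CLP. The CLP libraries differed from each other by little, whereas Sham replicate 1 stood well above the other Sham libraries. The CLP mean was 359 ± 7.66 CPM against a Sham mean of 57.8 ± 30.5 CPM (SD, n = 4). The log2 fold change was 2.63 ± 0.30 (edgeR adjusted p = 4.5e-05), or 3.08 without Sham replicate 1, and 97.1% of all genes tested had a value at or below that of Zc3h12a.

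Zc3h12c (ENSMUSG00000035164), which encodes Regnase-3, was scarce after sham surgery, with 94 to 128 counts per library. It was at 3.18, 2.86, 4.12 and 3.91 CPM in Sham and 21.2, 38.8, 25.4 and 21.7 CPM in CLP. The groups were far apart, with CLP replicate 2 the highest. Its log2 fold change of 2.93 ± 0.22 (edgeR adjusted p = 5.1e-06) corresponded to 7.6-fold, with a 95% interval of 5.39 to 10.7.

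Zc3h12d (ENSMUSG00000039981), which encodes Regnase-4, did not pass the test. It was at 14.3, 15.3, 25.7 and 8.10 CPM in Sham and 5.04, 9.48, 16.4 and 12.2 CPM in CLP, and the groups overlapped. The log2 fold change was -0.56 with a 95% interval of -1.40 to 0.29 (edgeR adjusted p = 0.237), which leaves room for a fall of over 2-fold as well as for a small rise. With total-count scaling it passed as lower (-1.12, edgeR adjusted p = 0.0259).

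Within the Regnase family, the log2 ratio of Zc3h12a to Zc3h12d went from 1.85 ± 0.92 in Sham to 5.18 ± 0.72 in CLP (SD, n = 4). That of Zc3h12c to Zc3h12d went from -2.07 ± 0.71 to 1.39 ± 0.77. Neither ratio is given a test, because the ranges of the genes given above fix the outcome. The ratio of Zc3h12a to Zc3h12c was 3.92 ± 0.85 in Sham and 3.79 ± 0.39 in CLP, and its groups overlapped (exact permutation p = 0.714). Per kilobase, Zc3h12a held 66.9% to 90.0% of the family's level in Sham and 94.0% to 96.6% in CLP. The long AU-rich motif was not found in the annotated 3′ untranslated regions of Zc3h12a, Zc3h12c or Zc3h12d.

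The Roquin genes changed little. Rc3h1 (ENSMUSG00000040423), the gene of Roquin-1, was at 175, 164, 170.1 and 157 CPM in Sham and 226, 261, 245 and 235 CPM in CLP, without overlap (log2 fold change 0.54 ± 0.10, edgeR adjusted p = 0.001). Its paralog Rc3h2 (ENSMUSG00000075376) was at 144, 136, 136 and 132 CPM in Sham and 157, 179.7, 159 and 161 CPM in CLP. Those groups also did not overlap, but the rise was small, at 0.26 ± 0.09 on the log2 scale (edgeR adjusted p = 0.0364). Both directions rest on the scaling: with total-count scaling the log2 fold change was -0.02 for Rc3h1 (edgeR adjusted p = 0.871) and -0.29 for Rc3h2 (edgeR adjusted p = 0.0137). In the same fit the median of all genes moved from -0.04 to -0.60, and relative to that median the values were 0.58 and 0.30. The call for Rc3h2 was lost in 6 of the 8 fits that left out 1 library, without CLP replicate 2, 3 or 4 or without Sham replicate 2, 3 or 4 (edgeR adjusted p = 0.0563 to 0.107). It was also lost with the replicate number as a block (edgeR adjusted p = 0.0852) and without the low-count filter (edgeR adjusted p = 0.245). Free of scaling, the log2 ratio of Rc3h1 to Rc3h2 was 0.28 ± 0.03 in Sham and 0.56 ± 0.04 in CLP, with no overlap. Its exact permutation p of 0.0286 is the smallest this design allows and is not adjusted for the number of ratios compared.

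Elavl1 (ENSMUSG00000040028), which encodes the stabilizing protein HuR, was at 81.3, 65.4, 73.4 and 68.3 CPM in Sham and 122, 119.5, 105 and 109 CPM in CLP. All CLP libraries were above all Sham libraries, and the log2 fold change was 0.66 ± 0.11 (edgeR adjusted p = 4.1e-04). With total-count scaling it was 0.11 and did not pass (edgeR adjusted p = 0.392). Elavl1 had the most copies of the AU-rich motif among the members, 8 copies starting between positions 3794 and 3840 of its 3′ untranslated region. Many of these overlap, with the first starting at 3794, 3798, 3802 and 3806, and each was counted. Part of that run is shown with the same use of capitals.
Elavl1 (position 3794): gtcatgaaaaTTATTTATTTATTTATTTAT

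N4bp1 (ENSMUSG00000031652) encodes a protein with a NYN-type nuclease domain, the fold that Regnase-1 also has, and is known as a suppressor of cytokine production. It was at 136, 86.0, 80.2 and 67.4 CPM in Sham and 168, 224, 287 and 193 CPM in CLP. The groups did not overlap, although Sham replicate 1, the highest Sham library, came near CLP replicate 1, the lowest CLP library. The CLP mean was 218 ± 51.1 CPM against a Sham mean of 92.5 ± 30.3 CPM. The log2 fold change was 1.24 ± 0.23 (edgeR adjusted p = 0.0011). It stayed past the threshold with total-count scaling (0.69, edgeR adjusted p = 0.0146).

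**Figure D3:**
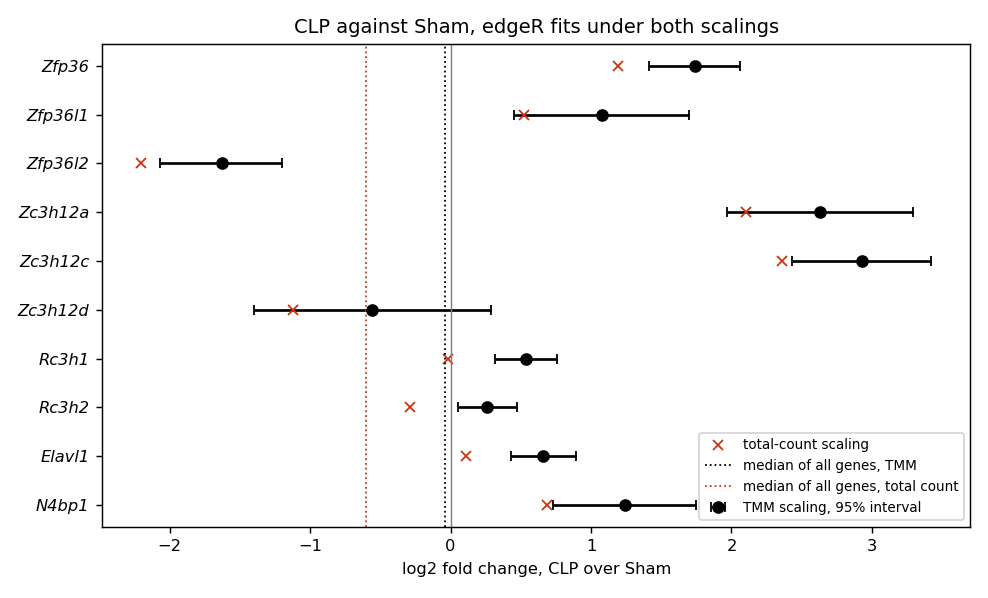
Log2 fold change of CLP over Sham (horizontal axis) for each gene, with black points and 95% intervals for the fit with TMM scaling and red crosses for total-count scaling; dotted lines mark the median of all genes in each fit, -0.04 and -0.60. Total-count scaling shifts every gene down by about the same amount, which takes Rc3h1 and Rc3h2 below 0, while Zfp36, Zfp36l1, Zc3h12a, Zc3h12c, Elavl1 and N4bp1 remain above it.

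Levels can be compared between genes only per length. In Sham, Zfp36 led at 81.0 ± 10.6 CPM per kilobase of exon, followed by Zfp36l1 at 59.9 ± 7.80, Zfp36l2 at 36.4 ± 10.9, Zc3h12a at 20.1 ± 10.6 and Rc3h1 at 14.7 ± 0.716 (SD, n = 4). N4bp1 (7.59 ± 2.48), Rc3h2 (6.98 ± 0.243) and Elavl1 (6.96 ± 0.675) overlapped in range, and Zc3h12d (3.88 ± 1.79) and Zc3h12c (0.514 ± 0.0870) came last. Zfp36l2 also overlapped with Zc3h12a in Sham, as did Zc3h12a with Rc3h1. In CLP, Zfp36 was at 269.9 ± 38.8, Zfp36l1 at 126 ± 55.3 and Zc3h12a at 124.5 ± 2.66 CPM per kilobase, the last 2 overlapping. Zfp36l2 had dropped from the third place to the sixth, at 11.7 ± 1.07 and overlapping with Elavl1, while Zc3h12c at 3.91 ± 1.20 overlapped with Zc3h12d at 2.64 ± 1.17. Measured on the longest annotated transcript in place of all exons, N4bp1, Rc3h2 and Elavl1 came to 14.3, 15.3 and 12.6 CPM per kilobase in Sham, so the order among them and Rc3h1 (15.1) depends on the length used. In CLP the place of Zfp36l2 does too: it was eighth by that length, below Elavl1 at 19.8 and Rc3h2 at 18.4.

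**Figure D4:**
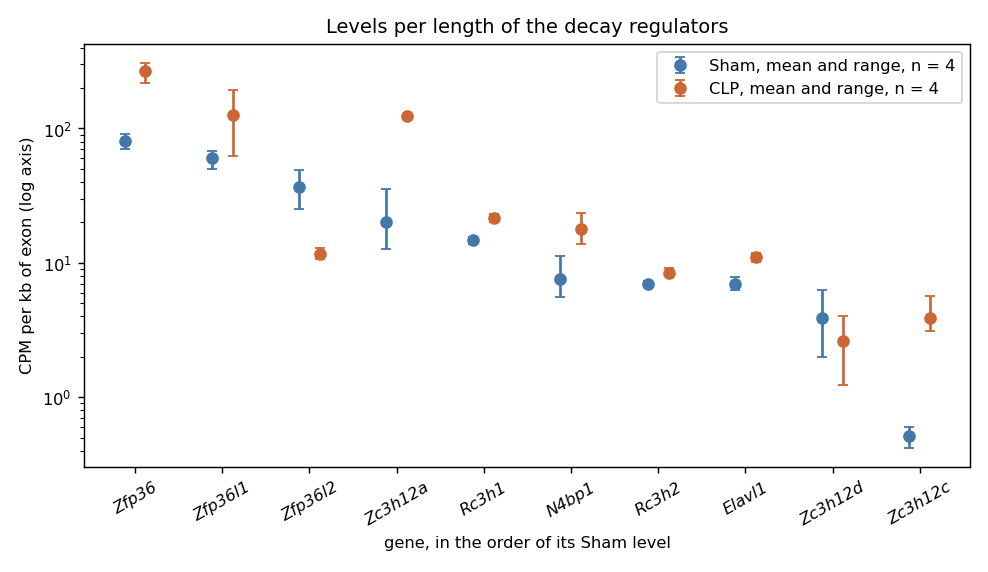
Mean level in CPM per kilobase of exon (log axis) with the range over 4 libraries, for Sham (blue) and CLP (orange), the genes being ordered by their Sham level. Zfp36 is highest in both groups, Zc3h12a rises to the level of Zfp36l1, and Zfp36l2 falls below Rc3h1.

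Some members had their highest or lowest level in the same library of a group. The margin was small in places, as for Zc3h12c at 21.2 and 21.7 CPM in CLP replicates 1 and 4. Whether members varied together inside a group was not tested. Sham replicate 1 had the highest Zc3h12a, N4bp1, Rc3h1, Rc3h2 and Elavl1 and the lowest Zfp36l1 and Zfp36l2 of the Sham libraries. CLP replicate 1, which stood apart on the second component, had the highest Zfp36l1 and Elavl1 and the lowest N4bp1, Zc3h12c, Zc3h12d, Rc3h1 and Rc3h2 of the CLP libraries. Its summed neutrophil markers, 199 CPM with Csf3r at 148, were also the lowest of the CLP group, and their part in these differences was not tested. With that library left out, 8 members were again higher and 1 lower.

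The genes whose log2 CPM followed Zfp36 most closely over the 8 libraries were Eif1, a translation initiation factor (Pearson r = 0.998), Ccrl2, a receptor for chemerin (0.998), and Slc11a1, the phagosomal metal transporter NRAMP1 (0.998). For Zc3h12a they were Samsn1, a signalling adaptor (0.999), Nfkbiz, which encodes IkB-zeta (0.999), and Marcksl1, an actin-binding protein kinase C substrate (0.998). These correlations are a description: all points share the step between the groups, and 10.1% of 8456 genes had r above 0.95 with Zfp36. After the group means were taken out, r was 0.945 to 0.959 for the Zfp36 genes and 0.974 to 0.992 for the Zc3h12a genes. The genes had been picked for the highest r over the same 8 libraries, so that choice raises these values too. They lend no separate weight.

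The lists that follow are read beside all genes tested, of which 24.9% were higher and 29.5% lower, or 1715 and 8292 of 14655 with total-count scaling. Deadenylases shorten the poly(A) tail once these regulators have bound. Of 18 deadenylation genes 2 were higher and 6 lower (median log2 fold change -0.15), or 1 and 16 with total-count scaling. With TMM scaling the 6 lower genes are near the share over all genes. Cnot8, a catalytic subunit of CCR4-NOT, fell from 45.2 ± 4.61 to 14.5 ± 2.90 CPM (log2 fold change -1.63 ± 0.15, edgeR adjusted p = 1.3e-05), and the subunit Cnot11 fell by 0.97 ± 0.12 on the log2 scale. Cnot1, the scaffold to which TTP and Roquin attach, had a CLP mean of 234 ± 21.5 CPM against 206 ± 5.16 CPM. It did not pass (0.18 ± 0.10, edgeR adjusted p = 0.155), but total-count scaling made it a lower gene (-0.37, edgeR adjusted p = 0.0053). The rises were those of Cnot4, a ubiquitin ligase, with 0.67 ± 0.14 (0.11 and not passed with total-count scaling), and Btg1, an antiproliferative factor that binds the deadenylase, with 1.59 ± 0.19.

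Of 19 genes of decapping and decay from the 5′ end, 4 were higher and 8 lower (median -0.42), or 2 and 14 with total-count scaling. The helicase Ddx6 rose from 337 ± 51.3 to 741 ± 76.7 CPM (log2 fold change 1.14 ± 0.14) and the scaffold Patl1 by 1.31 ± 0.11, and both were also higher with total-count scaling. Dcp1b, a decapping cofactor, fell by 0.99 ± 0.17 on the log2 scale. Among 16 tested genes of the RNA exosome, the nuclease that degrades from the 3′ end, 2 were higher and 7 lower (median -0.28), or 0 and 13 with total-count scaling. The core subunits Exosc4, Exosc5 and Exosc7 had log2 fold changes of -1.35 ± 0.14, -0.97 ± 0.15 and -1.29 ± 0.20. The helicase Skiv2l had a value of 0.38 ± 0.13, which became -0.18 with total-count scaling, and Mtrex did not pass (0.24 ± 0.09, edgeR adjusted p = 0.0518).

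Of 17 other proteins that act on mRNA stability, 10 were higher and 2 lower (median 0.54), beside 24.9% and 29.5% of all genes. With total-count scaling the counts turned to 4 and 7. Arid5a, which protects Il6 mRNA from Regnase-1, rose from 62.0 ± 10.8 to 247 ± 38.7 CPM (log2 fold change 2.00 ± 0.16, edgeR adjusted p = 6.3e-06). Igf2bp2, a reader of methylated mRNA, rose by 2.21 ± 0.25 and the splicing and stability factor Ptbp1 by 1.26 ± 0.11, and these 3 genes were also higher with total-count scaling. The RNA-binding proteins Pcbp2 (0.63 ± 0.11) and Caprin1 (0.32 ± 0.10) had the highest mean CPM of the list, not corrected for length. These genes did not keep a call of higher with that scaling, where their values were 0.08 and -0.23. Of 7 paralogs and nuclease relatives of the members, 2 were tested. Khnyn, a NYN nuclease, fell by 1.16 ± 0.15 on the log2 scale, and Nynrin did not pass (-0.89 ± 0.44, edgeR adjusted p = 0.107). The neuronal genes Elavl2 and Elavl4 had no counts.

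The list of upstream control holds kinases, phosphatase subunits, 14-3-3 proteins, proteases and adaptors that act on TTP, the Regnases or N4bp1. Of its 20 genes 14 were higher and 4 lower (median 0.72), beside 24.9% and 29.5% of all genes, or 10 and 6 with total-count scaling. TTP is held inactive by phosphorylation through p38 and the kinase MK2 and is reactivated by the phosphatase PP2A. Mapkapk2, the MK2 gene, rose from 271 ± 60.8 to 865 ± 76.0 CPM (log2 fold change 1.67 ± 0.17), and Ppp2ca, the PP2A catalytic subunit, by 1.73 ± 0.13. Dusp1, the phosphatase that switches p38 off, had a CLP mean of 1799.7 ± 184 CPM against 670.5 ± 72.2 CPM (1.42 ± 0.13). The p38 activator Map2k3 rose by 3.10 ± 0.18, whereas p38 itself (Mapk14, -1.41 ± 0.12) and its other activator Map2k6 (-2.09 ± 0.31) were lower. Malt1, the protease that cleaves Regnase-1 and N4bp1, rose from 33.4 ± 3.61 to 362 ± 122 CPM (3.44 ± 0.26, edgeR adjusted p = 5.0e-06). Besides Mapk14 and Map2k6, the ubiquitin ligase adaptor Btrc and the caspase Casp8 fell, and these 4 genes were named after their values were seen.

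**Figure D5:**
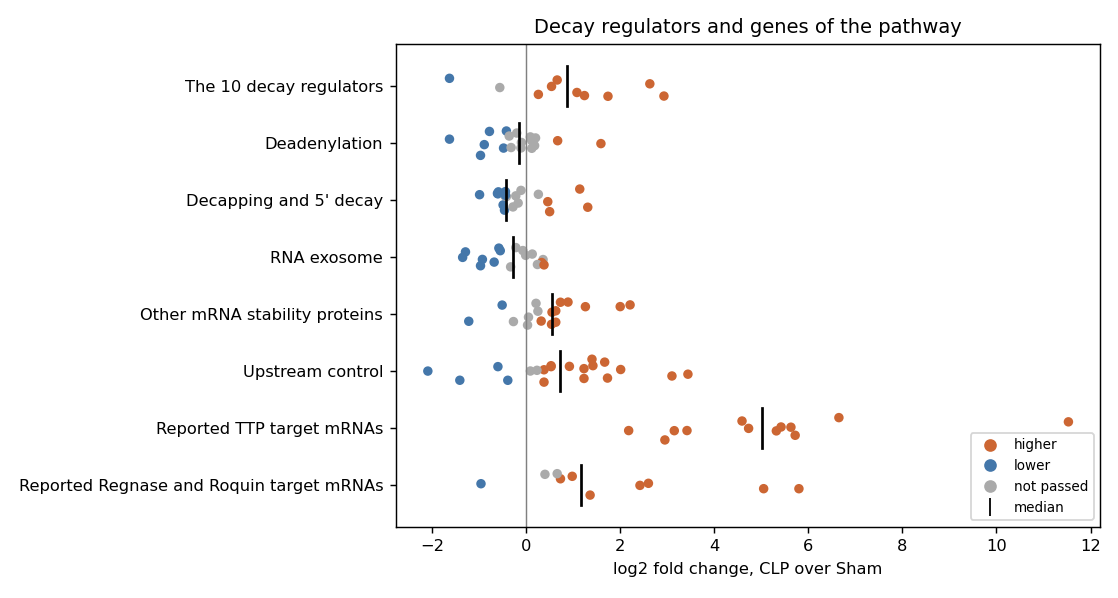
Log2 fold change of CLP over Sham (horizontal axis) for the 10 regulators and for each pathway list with at least 5 genes tested; points are genes, coloured by the edgeR call with TMM scaling, and the black bar is the median. The lists of decay enzymes have medians of -0.15, -0.42 and -0.28, whereas the reported TTP targets have 5.03; with total-count scaling all values shift down, and the counts of calls are those given in the text.

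Among the mRNAs that TTP is reported to destroy, 12 of 14 were tested and those 12 were higher, also with total-count scaling, beside 24.9% of all genes (median log2 fold change 5.03). That count and median include Il23a and Cxcl3, which were under 1 CPM after sham surgery and reached the test only through their CLP level. Csf2 and Lif were not tested. Cxcl3, a chemokine, had a mean of 0.211 CPM in Sham and 635.6 CPM in CLP. Tnf rose from 13.5 ± 6.84 to 359 ± 120 CPM (log2 fold change 4.73 ± 0.43, edgeR adjusted p = 1.2e-05) and Cxcl2, a neutrophil attractant, from 33.5 ± 7.76 to 1773 ± 617 CPM (5.72 ± 0.33). Il1a and Il1b, which encode interleukin-1 alpha and beta, rose by 4.59 ± 0.32 and 3.42 ± 0.46, and Ptgs2, which encodes cyclooxygenase-2, by 6.65 ± 0.60 on the log2 scale. The smallest rise was that of Ier3, an early response gene, at 2.18. The AU-rich motif TTATTTATT was present in 8 of the 14 and the core in 13. Tnf held 5 and Cxcl2 4 copies of the longer form, with overlapping copies each counted.

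Of 14 reported Regnase and Roquin targets 10 were tested, with 7 higher and 1 lower (median 1.17), beside 24.9% and 29.5% of all genes, or 5 and 1 with total-count scaling. Tnfrsf4 and Egln3, both under 1 CPM in Sham, did not pass. Il12b, a subunit of interleukin-12, had a CLP mean of 95.1 ± 27.7 CPM against 1.70 ± 1.64 CPM (log2 fold change 5.80 ± 0.56), and Il6 rose by 5.05 ± 0.55. Nfkbiz rose from 194 ± 77.2 to 1038 ± 26.4 CPM (2.42 ± 0.24) and Rel, an NF-kB subunit, by 2.60 ± 0.23. Nfkbid, which encodes another nuclear IkB protein, rose by 1.36 ± 0.12. The transferrin receptor Tfrc, which brings in iron, rose by 0.73 ± 0.17 on the log2 scale (edgeR adjusted p = 0.0044) but did not pass with total-count scaling (0.17, edgeR adjusted p = 0.392). Icos, the T cell costimulator that is the classic Roquin target, fell from 45.3 ± 8.99 to 23.3 ± 1.68 CPM (-0.96 ± 0.15, edgeR adjusted p = 2.9e-04). The long motif was present in 3 of these 14 genes.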

How the data were processed

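Sorted Kupffer cells were profiled by RNA-seq in 8 libraries. The deposited table holds raw read counts per Ensembl gene. The submitters' processing notes name FastQC, STAR 2.7.10b, featureCounts, DESeq2 and assembly mm39. Settings, annotation release and strand option of the counting are not stated in the labels. Symbols, exon lengths and 3′ untranslated regions came from GENCODE M21 (GRCm38), matched by gene ID for 52133 genes with 99.8% of the counts, so no coordinates are printed.

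After the filterByExpr step, counts received TMM scaling and were modelled in edgeR 4.0.16 with R 4.3.3 (robust quasi-likelihood F-test, surgery as the only term, Benjamini-Hochberg, threshold 0.05). Each SE was approximated by dividing the size of the log2 fold change by the root of its F statistic, and 95% intervals use the t distribution. CPM values are TMM-scaled. Ratios within a library were compared by exact permutation, except where the ranges of both genes fixed the outcome. The test was checked on simulated data.

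Alternatives were DESeq2 1.42.0, limma voom 3.58.1, other scalings, a GC correction, other filters, a replicate block and leaving out each library. Named genes were the 10 members, the tested genes of each list with the 3 smallest p and the 2 highest mean CPM (not corrected for length), further reported targets where the text needed them, and the 3 genes most like Zfp36 and Zc3h12a with at least 10 CPM. Named besides these, after their values were seen, were Cnot4, Mapk14, Map2k6, Btrc, Casp8, Elavl2 and Elavl4. The members and lists were chosen with earlier results of these data known. The family ratios, 3′ motif counts and promoter searches were added after the data were seen. The B cell marker list is not reported here.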

Additional observations from a re-analysis of the deposited data

How the results depend on the processing

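The members' calls depended mainly on scaling. With total-count scaling 4 members were higher and 3 lower, in place of 8 and 1, and across the transcriptome 1715 were higher and 8292 lower, in place of 3644 and 4319, and the share of calls that were upward went from 45.8% to 17.1%. In that fit Rc3h1 had a log2 fold change of -0.02 and Rc3h2 of -0.29, both turned in sign. Zfp36, Zc3h12a, Zc3h12c and N4bp1 stayed higher and Zfp36l2 lower. DESeq2, DESeq2 size factors in edgeR, limma voom, the fit without robust estimation and the GC correction gave 8 members higher and 1 lower each; no low-count filter gave 6 and 1. Leaving out 1 library gave 7 or 8 higher and 1 lower. Pathway counts moved too. With total-count scaling the numbers of higher and lower genes became 1 and 16 for deadenylation, 2 and 14 for decapping, 0 and 13 for the exosome, 4 and 7 for other stability proteins and 0 and 2 for the paralogs. The lower decapping genes numbered 5 in place of 8 without CLP replicate 3, CLP replicate 4 or Sham replicate 3. The higher exosome genes numbered 4 in place of 2 with DESeq2, with its size factors or without CLP replicate 1, 1 without CLP replicate 3, CLP replicate 4 or Sham replicate 2, and 0 without Sham replicate 4. Without Sham replicate 2 the lower paralogs numbered 2 in place of 1. Same-numbered CLP and Sham libraries did not deviate together (r = 0.172, -0.125, 0.126 and -0.0853), and 0 of 4 CLP libraries correlated best with its own number. With the replicate block, 7 members were higher and 1 lower, and 3491 and 4303 genes overall; Rc3h2 alone lost its call.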

Other observations

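The AU-rich motif that the TTP family binds was also counted over all tested genes with an annotated 3′ untranslated region. Of 11362 genes without TTATTTATT, 25.3% were higher and 31.0% lower in CLP by edgeR. Of 786 genes with 1 copy, 31.4% were higher and 33.0% lower, and of 213 genes with 2 or more copies, 34.7% were higher and 27.2% lower. The median log2 fold changes were -0.06, 0.00 and 0.02. The median length of the region rose with the number of copies, from 1088 to 2254 and 2773 bases. In each of 4 classes of length the share of higher genes was greater among those with the motif. From the shortest class to the longest it was 26.4% against 20.9% (53 genes with the motif), 28.8% against 23.7% (111 genes), 31.0% against 26.5% (255 genes) and 33.8% against 29.6% (580 genes). The share of lower genes was also greater with the motif in 3 of the classes, at 28.3% against 27.9%, 33.3% against 32.3% and 31.6% against 31.3%, and smaller in the class of 255 genes, at 32.2% against 33.0%. Genes are not replicates, and these shares were not tested.

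Promoters of 9 of the 10 members, from 250 bases before to 50 after the start, were found in RefSeq (GRCm38.p6), with 2 for Zc3h12c. On either strand none held the NF-kB consensus site, which 4.51% of all 32851 promoter windows held. The promoter of Zfp36 held 1 CArG box, the site of serum response factor, with the sequence CCATAAAAGG beginning 58 bases before the start, a match found in 1.63% of windows. The AP-1 site was present in the windows of Zfp36l1 and Rc3h1 (7.81% of all windows), and the cAMP response element in none of the members' windows (1.79% of all). These matches describe the letters in the window only.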
